A study of Mus musculus with 16 samples.

Results

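The tetraspanins *Cd151*, *Cd9*, *Cd81*, *Cd82* and *Cd63* and the immunoglobulin-superfamily genes *Igsf8* and *Ptgfrn* encode proteins that associate with integrin α3β1, directly or through one another. They were taken by their gene symbols, and all 7 of 7 were present among the 14474 genes of the table. Counts came from an immortalized line of mouse keratinocytes without integrin α3 (MKα3−) and from its derivative in which human α3 was restored (MKα3+). Both lines were grown on collagen and treated for 16 to 24 h with full-length laminin-332 (LN332) at 0.02 mg/mL or with an equal volume of vehicle, with 4 replicates in each of the 4 groups. Each genotype is represented by 1 line, so the return of α3 and any other difference between the lines cannot be told apart.

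Tetraspanins are small proteins that span the membrane several times and gather integrins, proteases and adhesion proteins into membrane assemblies called the tetraspanin web. CD151 binds the α3 subunit directly and holds α3β1 in these assemblies, in which LN332 of the basement membrane is the ligand of the integrin. CD9 and CD81 are close relatives whose main direct partners are the products of *Ptgfrn* (CD9P-1, also EWI-F) and *Igsf8* (EWI-2). CD82 is known as a suppressor of metastasis, and CD63 cycles between the cell surface and late endosomes and is a common marker of exosomes.

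The libraries held between 21735708 and 29338370 counts (median 27036993), and every library carried the keratinocyte markers, whose summed level over 12 of 12 genes was between 11614 and 24849 CPM (counts relative to the library total, scaled with TMM factors). Fibroblast markers (5 of 8 in the table), endothelial markers (5 of 5) and the melanocyte marker *Pmel* (1 of 6) summed to at most 40.7, 9.74 and 3.94 CPM. Immune cell markers (4 of 6, *Ptprc*, *Lyz2*, *Adgre1* and *Csf1r*, with *Cd3e* and *Cd207* not in the table) summed to between 12.6 and 78.0 CPM in MKα3− libraries and between 36.5 and 336 CPM in MKα3+ libraries. MKα3+ vehicle replicates 3 and 4 and MKα3+ LN332 replicate 4 stood apart with 304, 322 and 336 CPM, and the comparisons between the lines are also given without these 3 libraries. A gene was called where its adjusted p-value was under 0.05 and its log2 fold change beyond 0.5 in size. Between the lines, 2 of these 4 immune markers were called higher in MKα3+ cells in vehicle and 1 in LN332. Of all genes 10.9% and 11.7% were called higher. Of the 12 keratinocyte markers 3 were called lower in vehicle and 4 in LN332, against 7.56% and 8.92% of all genes. The targeted gene *Itga3* did not tell the lines apart, with vehicle means of 259 ± 42.4 CPM without and 277 ± 46.8 CPM with α3 (SD, n = 4). Its log2 fold change was 0.09 (SE 0.15, adjusted p = 0.694 from limma-voom), and the restored subunit is human whereas the reads were mapped to the mouse genome.

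To ask which members depend on α3β1, MKα3+ cells were compared with MKα3− cells in each treatment. *Cd81* was the member that rose with α3, about 15.8-fold in vehicle and 13.6-fold in LN332. *Cd9* was moderately lower and *Ptgfrn* moderately higher in MKα3+ cells, by less than the minimum change used for a call, and the other 4 members did not pass the test. limma-voom gave the p-values, adjusted by the Benjamini-Hochberg method over all genes. In vehicle 1 of 7 members was called, against 18.5% of all genes (10.9% higher and 7.56% lower), and 3 of 7 passed the adjusted p-value alone, against 28.4%. In LN332 1 of 7 was called, against 20.6% of all genes (11.7% higher and 8.92% lower), and 3 of 7 passed the adjusted p-value alone, against 32.2%. Without the 3 libraries highest in immune markers, 1 of 7 members was called and 2 of 7 (*Cd81* and *Cd9*) passed the adjusted p-value alone in each treatment, against 13.1% and 15.0% of all genes in vehicle and 16.6% and 21.2% in LN332. The median log2 fold change over the members was -0.12 in vehicle and 0.04 in LN332, beside 0.01 over all genes in both. In RNA from whole cultures, fewer cells with a transcript and less of it per cell cannot be told apart.

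**Figure D1:**
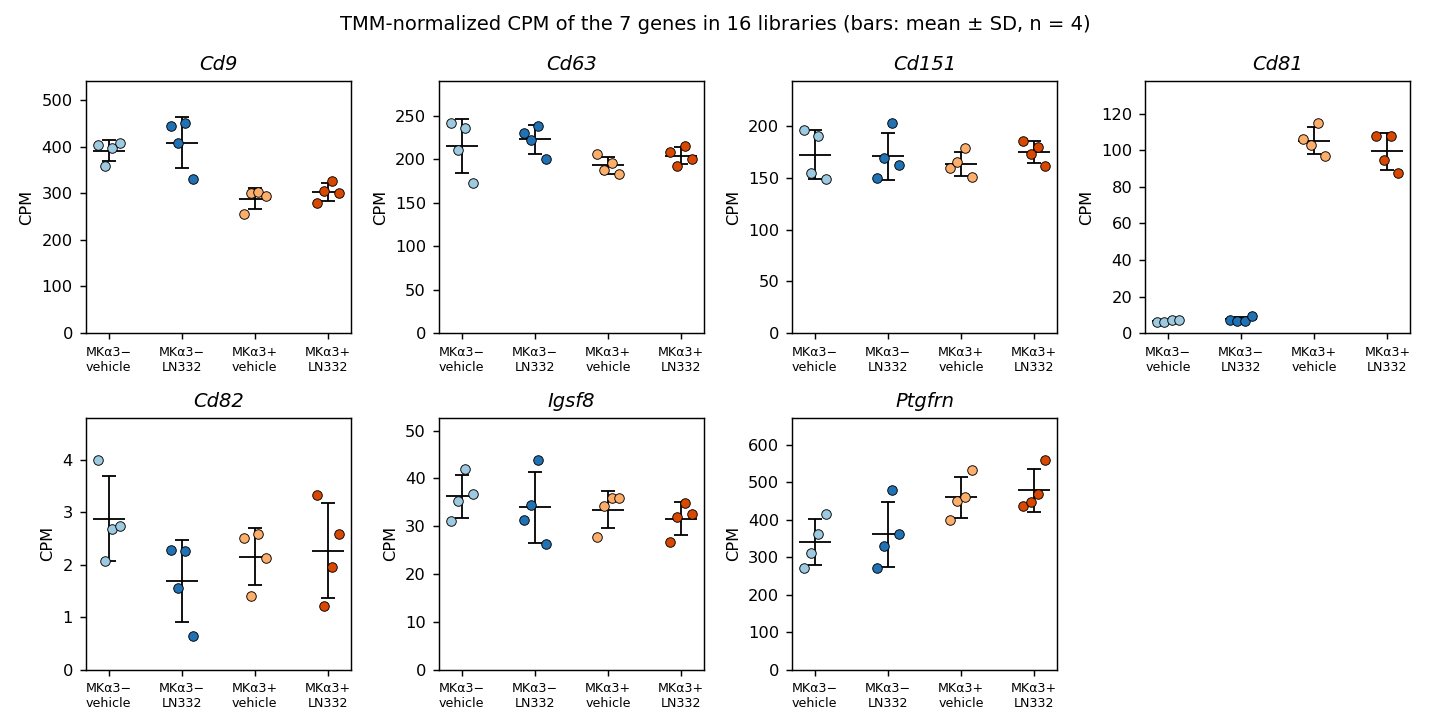
TMM-normalized CPM (vertical axes, linear, each starting at 0) of the 7 genes in the 16 libraries, one panel per gene and 4 groups per panel. Points are libraries in replicate order and bars are the mean ± SD (n = 4). *Cd81* is between 5.93 and 9.34 CPM in the 8 MKα3− libraries and between 87.4 and 115 CPM in the 8 MKα3+ libraries.

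*Cd81* (Entrez 12520, mm10 chromosome 7, 143052739 to 143067934, plus strand) encodes a tetraspanin that binds EWI-2 and CD9P-1 and is also a component of the B cell co-receptor. In vehicle it was at 5.93, 6.31, 7.33 and 7.08 CPM in MKα3− replicates 1 to 4 and at 106, 103, 115 and 97.1 CPM in MKα3+ replicates 1 to 4. In LN332 it was at 6.98, 6.78, 6.68 and 9.34 CPM in MKα3− cells and at 108, 94.7, 108 and 87.4 CPM in MKα3+ cells. The lowest MKα3+ library thus lay far above the highest MKα3− library in either treatment, and the groups did not overlap, which held for 17.2% of all genes (in this direction) in vehicle and 13.6% in LN332. The log2 fold change was 3.98 (SE 0.13, 95% interval 3.71 to 4.25, adjusted p = 1.79e-12) in vehicle and 3.76 (SE 0.13, 95% interval 3.50 to 4.03, adjusted p = 4.91e-12) in LN332. An exact two-sided permutation test of the CPM values gave p = 0.0286 in each treatment, the smallest that 4 against 4 libraries allow. Between 169 and 207 counts lay behind each MKα3− value and between 2333 and 2944 behind each MKα3+ value.

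Since immune cell markers were higher in MKα3+ libraries, their levels are set beside those of *Cd81*. In MKα3+ LN332 replicate 1, where the 4 immune markers summed to 36.5 CPM, *Cd81* was at 108 CPM, and in MKα3+ LN332 replicate 4, where they summed to 336 CPM, it was at 87.4 CPM. MKα3− LN332 replicate 3 had more of these markers than MKα3+ LN332 replicate 1, 78.0 CPM, and *Cd81* at 6.68 CPM. In a fit without the 3 libraries with the most of these markers, the log2 fold change of *Cd81* was 3.97 (adjusted p = 8.16e-10) in vehicle and 3.82 (adjusted p = 4.85e-10) in LN332.

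**Figure D2:**
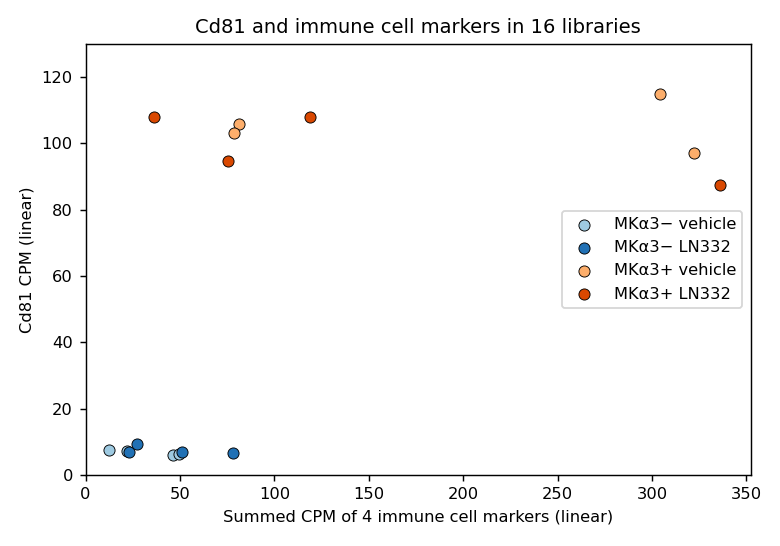
*Cd81* CPM (vertical axis, linear) against the summed CPM of 4 immune cell markers (horizontal axis, linear) in the 16 libraries, coloured by group. *Cd81* sits at or above 87.4 CPM in each MKα3+ library, from the one with 36.5 to the one with 336 CPM of immune markers.

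An unstranded count cannot separate *Cd81* from *R74862*, a transcript on the opposite strand that shares 104 exonic bases with it, and whether reads were counted by strand is not given in the sources used here. *R74862* itself was called higher in MKα3+ cells in vehicle (log2 fold change 3.44, SE 0.60, adjusted p = 0.000342), from 0.130 to 0.955 CPM. These levels are small beside those of *Cd81*. The chromosomal neighbourhood of *Cd81*, a cluster known for imprinted genes, did not move as a block. Of the 13 other genes measured within 500 kb, 1 (*R74862*) was called higher and 3 lower in vehicle, against 10.9% and 7.56% of all genes. The median log2 fold change of the 13 was -0.08. The lower ones were *Cdkn1c*, an inhibitor of cyclin-dependent kinases, at -4.19 (SE 0.37, adjusted p = 2.19e-07), *Slc22a18*, a membrane transporter gene, at -1.13 (SE 0.40, adjusted p = 0.0401), and *Phlda2*, a gene that limits placental growth, at -0.85 (SE 0.19, adjusted p = 0.00245). *Tssc4*, which lies 486 bp away, was at 74.7 and 63.1 CPM (log2 fold change -0.24, SE 0.08, adjusted p = 0.0336), and the tetraspanin gene *Tspan32*, at 33264 bp, was not called (-0.57, SE 0.40, adjusted p = 0.313). In LN332 *R74862* (3.36, adjusted p = 0.000329) was again called higher. *Cdkn1c* (-3.66, adjusted p = 2.70e-07) and *Phlda2* (-0.87, adjusted p = 0.00130) were again called lower there, and *Slc22a18* (-1.08, adjusted p = 0.0700) was not called. These neighbours were chosen by distance and named after their values were seen.

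The sequences upstream of *Cd81* and *Cd9* are shown because the levels of these close relatives differed in opposite directions between the lines. They are from RefSeq (GRCm38.p6), end at the base before the first annotated exon, and carry in capitals each GGGCGG, the core of a GC box, in either orientation.
Cd81, chr7:143052500-143052738, plus strand: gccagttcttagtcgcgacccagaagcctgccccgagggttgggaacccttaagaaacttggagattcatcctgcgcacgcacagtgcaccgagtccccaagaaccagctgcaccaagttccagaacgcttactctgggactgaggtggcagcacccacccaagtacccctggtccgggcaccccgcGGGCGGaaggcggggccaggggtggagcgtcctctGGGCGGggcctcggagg
Cd9, chr6:125494792-125495010, minus strand: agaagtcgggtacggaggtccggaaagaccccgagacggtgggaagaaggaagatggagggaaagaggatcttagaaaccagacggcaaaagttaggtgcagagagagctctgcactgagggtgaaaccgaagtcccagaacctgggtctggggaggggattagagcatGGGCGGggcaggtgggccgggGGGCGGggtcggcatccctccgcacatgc

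In the 250 bases before the RefSeq start, *Cd81* held 3 such motifs, of which the one nearest the start reaches into the annotated exon and is not shown, *Cd9* held 2 and *Ptgfrn* 1. The motif was also present in *Cd151* (2), *Cd82* (1) and *Igsf8* (4), and not in *Cd63*, and 32.7% of the 32851 RefSeq windows of this length held it. Neither TGANTCA, the letters bound by AP-1, nor TATAAA was found on either strand in any of the 7 windows, and 6.75% and 12.4% of all windows held them. The windows of *Cd81*, *Cd9* and *Ptgfrn* had 16, 16 and 34 CpG dinucleotides and a GC content of 65.6%, 61.6% and 79.2%, beside medians of 6 CpG and 52.4% over all windows. The motif count of *Cd81* lay within the range of the other members.

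*Cd9* (Entrez 12527, chromosome 6, 125460266 to 125494791, minus strand), whose product is abundant in epidermis and takes part in cell motility and membrane fusion, was the highest tetraspanin of the set. In vehicle it was at 404, 358, 397 and 409 CPM in MKα3− replicates 1 to 4 and at 255, 301, 302 and 295 CPM in MKα3+ replicates 1 to 4. In LN332 it was at 444, 408, 451 and 331 CPM in MKα3− cells and at 279, 304, 326 and 300 CPM in MKα3+ cells. Every MKα3− library lay above every MKα3+ library of the same treatment, a separation in this direction seen for 15.7% of all genes in vehicle and 12.9% in LN332, and MKα3− LN332 replicate 4 lay nearest to the MKα3+ range. The log2 fold change was -0.44 (SE 0.10, 95% interval -0.66 to -0.23, adjusted p = 0.00354) in vehicle and -0.42 (SE 0.10, 95% interval -0.64 to -0.21, adjusted p = 0.00432) in LN332, with an exact permutation p = 0.0286 in each. *Cd9* passed the adjusted p-value and not the minimum change, so it was not called, and without MKα3− LN332 replicate 4 it was called lower in LN332 (-0.53, adjusted p = 0.000288). *Cd9* shares 218 exonic bases with *Gm26728* on the opposite strand, and whether the counting separated their reads is not given in the sources used here.

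Of the 21 other genes measured within 500 kb of *Cd9*, 0 were called higher and 3 lower in vehicle, against 10.9% and 7.56% of all genes. The median log2 fold change of the 21 was -0.17. The 3 were *Plekhg6* (-1.15, SE 0.17, adjusted p = 7.00e-05), *Acrbp* (-0.88, SE 0.25, adjusted p = 0.0148) and *Lpar5* (-0.64, SE 0.15, adjusted p = 0.00466). In LN332 *Plekhg6* (-1.29, adjusted p = 6.57e-05) and *Lpar5* (-0.52, adjusted p = 0.0279) were again called lower, and *Acrbp* (-0.38, adjusted p = 0.276) was not. *Tnfrsf1a* (-0.57, adjusted p = 0.00167) was called lower and *Vamp1* (0.59, adjusted p = 0.0242) higher in LN332 alone. *Acrbp* encodes a protein of the sperm acrosome and *Lpar5* a receptor for lysophosphatidic acid.

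*Ptgfrn* (Entrez 19221, chromosome 3, 101040232 to 101110278, minus strand) encodes CD9P-1, an immunoglobulin-superfamily protein that binds CD9 and CD81. In vehicle it was at 272, 312, 363 and 416 CPM in MKα3− replicates 1 to 4 and at 399, 450, 461 and 532 CPM in MKα3+ replicates 1 to 4. In LN332 it was at 272, 329, 479 and 363 CPM in MKα3− cells and at 437, 447, 468 and 560 CPM in MKα3+ cells. The groups overlapped in both treatments, as they did not for 32.9% of all genes in vehicle and 26.5% in LN332, in vehicle through MKα3− replicate 4 and in LN332 through MKα3− replicate 3. The log2 fold change was 0.45 (SE 0.16, 95% interval 0.11 to 0.78, adjusted p = 0.0457) in vehicle and 0.43 (SE 0.16, 95% interval 0.09 to 0.77, adjusted p = 0.0474) in LN332, and exact permutation tests gave p = 0.0571 and p = 0.1143.

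Without the 3 libraries with the most immune markers the log2 fold change of *Ptgfrn* was 0.33 (adjusted p = 0.310) in vehicle and 0.35 (adjusted p = 0.176) in LN332, so the adjusted p-value no longer passed, and the part of these markers in the difference was not tested. When 1 library of the 16 was left out at a time, the adjusted p-value of *Ptgfrn* exceeded 0.05 in 9 fits in vehicle (up to 0.147, without MKα3− vehicle replicate 1) and in 11 fits in LN332 (up to 0.150, without MKα3− LN332 replicate 1). In vehicle the libraries concerned were replicates 1, 2 and 3 of MKα3− vehicle, replicate 2 of MKα3− LN332, replicates 2, 3 and 4 of MKα3+ vehicle and replicates 2 and 3 of MKα3+ LN332. In LN332 they were replicates 2 and 3 of MKα3− vehicle, 1, 2 and 4 of MKα3− LN332, and 2, 3 and 4 of both MKα3+ groups. *Ptgfrn* was called higher in vehicle without MKα3− vehicle replicate 4 (0.55, adjusted p = 0.0214) or MKα3+ vehicle replicate 1 (0.51, adjusted p = 0.0378), and in LN332 without MKα3− LN332 replicate 3 (0.57, adjusted p = 0.00769). Of the 7 other genes measured within 500 kb, 0 were called in vehicle, against 18.5% of all genes. These 7 include the relatives of *Ptgfrn* in its own family, *Cd101* (0.01, SE 0.48, adjusted p = 0.991) and *Igsf3* (-0.48, SE 0.22, adjusted p = 0.114).

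*Igsf8* (Entrez 140559, chromosome 1, 172261641 to 172319841, plus strand) encodes EWI-2, the other shared partner of CD9 and CD81. It was at 31.0, 35.3, 42.0 and 36.7 CPM in MKα3− and at 27.7, 34.3, 35.9 and 35.8 CPM in MKα3+ replicates in vehicle, and at 31.4, 34.5, 43.9 and 26.2 CPM and 26.7, 31.9, 34.9 and 32.6 CPM in LN332. The groups overlapped throughout, and the log2 fold changes were -0.12 (SE 0.14, 95% interval -0.41 to 0.18, adjusted p = 0.577) in vehicle and -0.10 (SE 0.14, 95% interval -0.40 to 0.20, adjusted p = 0.629) in LN332.

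*Cd151* (Entrez 12476, chromosome 7, 141467392 to 141471473, plus strand), the direct partner of the α3 subunit, was at 196, 155, 190 and 149 CPM in MKα3− and at 160, 165, 179 and 151 CPM in MKα3+ replicates in vehicle. In LN332 it was at 150, 169, 203 and 162 CPM in MKα3− and at 186, 173, 180 and 161 CPM in MKα3+ cells. The levels of the lines lay within each other's range. The log2 fold change was -0.07 (SE 0.11, 95% interval -0.29 to 0.16, adjusted p = 0.689) in vehicle and 0.04 (SE 0.11, 95% interval -0.19 to 0.27, adjusted p = 0.806) in LN332, and the intervals lie within the change of 0.5 required for a call. *Cd151* shares 193 exonic bases with *Gm10575* on the opposite strand.

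*Cd63* (Entrez 12512, chromosome 10, 128900989 to 128912822, plus strand), the late endosomal tetraspanin, was at 242, 211, 236 and 173 CPM in MKα3− and at 206, 188, 196 and 183 CPM in MKα3+ replicates in vehicle. In LN332 it was at 231, 222, 239 and 201 CPM in MKα3− and at 209, 193, 216 and 200 CPM in MKα3+ cells. The means were lower in MKα3+ cells with overlapping groups, and the differences of -0.15 (SE 0.10, 95% interval -0.36 to 0.06, adjusted p = 0.297) and -0.13 (SE 0.10, 95% interval -0.34 to 0.08, adjusted p = 0.362) did not pass the test.

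*Cd82* (Entrez 12521, chromosome 2, 93419111 to 93463140, minus strand), which restrains motility in tumour cells, had the lowest counts of the members. It was at 4.00, 2.07, 2.69 and 2.73 CPM in MKα3− and at 2.51, 1.40, 2.59 and 2.12 CPM in MKα3+ replicates in vehicle, and at 2.29, 1.55, 2.26 and 0.635 CPM and 3.33, 1.22, 1.95 and 2.58 CPM in LN332, from between 13 and 114 counts per library. Replicates of a group thus spread as widely as the groups. The log2 fold changes of -0.40 (SE 0.34, 95% interval -1.11 to 0.31, adjusted p = 0.409) and 0.44 (SE 0.39, 95% interval -0.38 to 1.26, adjusted p = 0.422) did not pass the test, and their intervals include changes of the size required for a call.

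**Figure D3:**
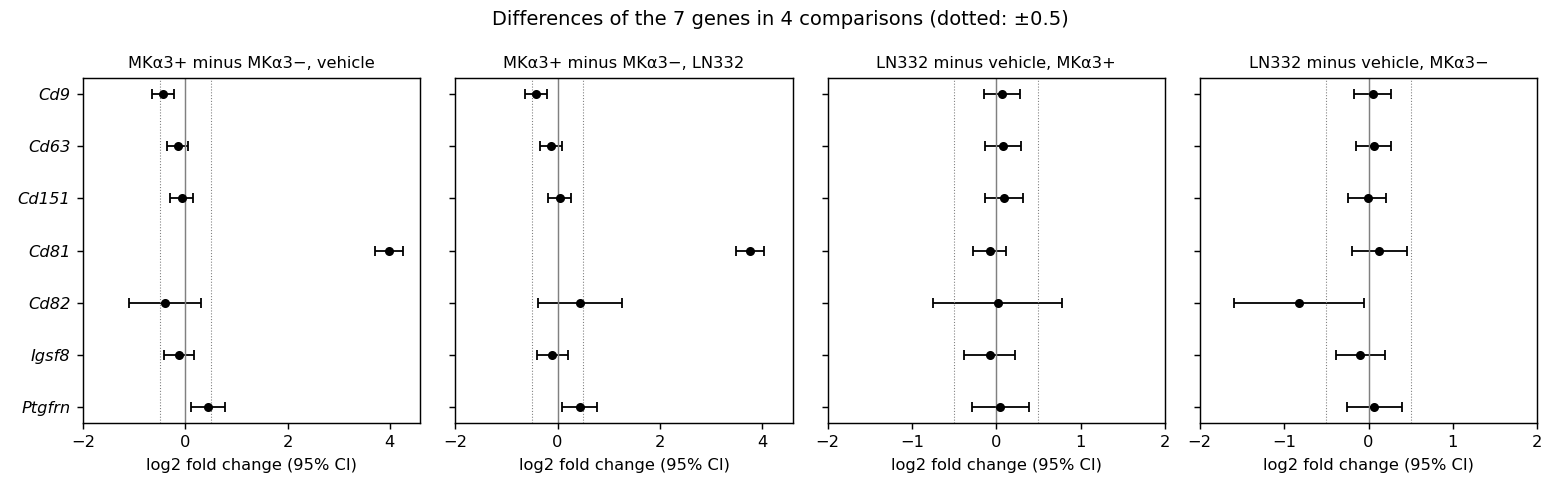
Log2 fold change (horizontal axes) of the 7 genes with 95% intervals in 4 comparisons, MKα3+ minus MKα3− cells in each treatment (left) and LN332 minus vehicle in each line (right), with dotted lines at ±0.5. *Cd81* stands at 3.98 and 3.76 on the left, and on the right only the interval of *Cd82* in MKα3− cells, -1.59 to -0.05, excludes 0.

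Levels of different genes were compared as CPM per kb of annotated exon. In vehicle-treated MKα3− cells the order was *Cd9* at 319 ± 18.8, *Cd63* at 149 ± 21.8, *Cd151* at 88.9 ± 12.3, *Ptgfrn* at 57.8 ± 10.6, *Igsf8* at 11.6 ± 1.46, *Cd81* at 4.35 ± 0.427 and *Cd82* at 1.49 ± 0.420 CPM per kb (SD, n = 4). In vehicle-treated MKα3+ cells *Cd9* (235 ± 18.2) and *Cd63* (133 ± 7.0) again came first, and *Cd81* at 68.6 ± 4.98 CPM per kb stood next to *Cd151* (84.4 ± 6.13) and *Ptgfrn* (78.1 ± 9.29). *Ptgfrn*, which spanned 67.6 to 90.2 CPM per kb, overlapped both *Cd151* (77.7 to 92.4) and *Cd81* (63.3 to 75.2), whereas every value of *Cd151* lay above every value of *Cd81*. *Igsf8* (10.7 ± 1.25) and *Cd82* (1.12 ± 0.280) came last.

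Among the 5 tetraspanins of the set, the share of *Cd81* in their summed CPM per kb was 0.776 ± 0.0949% in MKα3− and 13.1 ± 0.658% in MKα3+ cells in vehicle, and 0.855 ± 0.248% and 11.9 ± 0.931% in LN332 (SD, n = 4). The share of *Cd9* was 56.8 ± 3.64% and 44.9 ± 2.64% in vehicle and 57.2 ± 2.38% and 45.3 ± 2.14% in LN332. *Cd63* held between 25.6% and 26.6% and *Cd151* between 15.2% and 16.6% in the 4 group means. The sum itself was 563 ± 40.0 CPM per kb in MKα3− and 522 ± 21.3 CPM per kb in MKα3+ cells in vehicle, and 581 ± 60.8 and 544 ± 24.4 CPM per kb in LN332. The means were lower in MKα3+ cells and the ranges overlapped, from 522 to 603 and 503 to 550 in vehicle and from 498 to 642 and 524 to 579 in LN332.

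**Figure D4:**
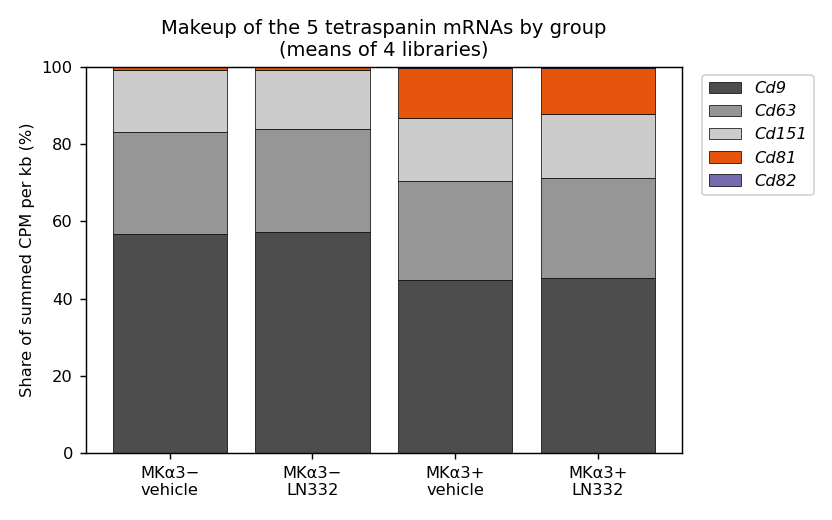
Share (percent, vertical axis from 0 to 100) of *Cd9*, *Cd63*, *Cd151*, *Cd81* and *Cd82* in their summed CPM per kb in the 4 groups, as stacked means of 4 libraries without error bars. *Cd81* takes 13.1% and 11.9% in MKα3+ cells and 0.776% and 0.855% in MKα3− cells.

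To ask which members respond to the ligand, LN332 was compared with vehicle within each line. In MKα3+ cells 0 of 7 members were called by limma-voom, edgeR or DESeq2, and 0 had an unadjusted p-value under 0.05, where 0.187% of all genes were called and 9.66% separated the groups. Replicate numbers paired the MKα3+ libraries of both treatments, and with the replicate number as a block 0 members and 1.51% of all genes (218 in place of 27) were called. The widest interval among the members other than *Cd82* was that of *Ptgfrn*, with a log2 fold change of 0.05 (95% interval -0.29 to 0.39, adjusted p = 0.972). *Cd81* changed by -0.08 (95% interval -0.28 to 0.11, adjusted p = 0.898), *Cd151* by 0.09 (95% interval -0.13 to 0.32, adjusted p = 0.901) and *Cd9* by 0.07 (95% interval -0.14 to 0.28, adjusted p = 0.926). *Cd63* (0.08, 95% interval -0.13 to 0.29) and *Igsf8* (-0.08, 95% interval -0.38 to 0.22) were also bounded within 0.5, and *Cd82* (0.02, 95% interval -0.75 to 0.78) was not. For 6 of the 7 members a change as large as the call requires thus lay outside the interval.

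In MKα3− cells 0 of 7 members were called by limma-voom, edgeR or DESeq2, where 0.304% of all genes were called and 4.95% separated the groups, and 1 member, *Cd82*, had an unadjusted p-value under 0.05. *Cd82* was at a mean of 2.87 ± 0.811 CPM in vehicle and 1.68 ± 0.778 CPM in LN332 (SD, n = 4), which differed by -0.82 on the log2 scale (SE 0.37, 95% interval -1.59 to -0.05, unadjusted p = 0.0392, adjusted p = 0.332). The exact permutation test gave p = 0.0857, and the lowest of these libraries, LN332 replicate 4, rested on 13 counts. The other 6 members lay between -0.10 and 0.13, with *Cd81* at 0.13 (95% interval -0.19 to 0.46, adjusted p = 0.767).

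The response to LN332 was not shown to differ between the lines for any member. In the interaction 0 of 7 members and 0% of all genes were called by limma-voom, edgeR and DESeq2, which gave 164, 168 and 207 genes an unadjusted p-value under 0.05. For *Cd81* the response in MKα3+ cells less that in MKα3− cells was -0.22 (SE 0.18, 95% interval -0.59 to 0.16), and for *Cd82* it was 0.84 (SE 0.52, 95% interval -0.25 to 1.93, unadjusted p = 0.123), both with an adjusted p = 1. Averaged over both lines, LN332 left 0 of 7 members called, against 1.35% of all genes, and the member farthest from 0 was *Cd82* at -0.40 (adjusted p = 0.421).

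The subunits of the laminin-binding integrins, to which the members attach, were not called in either comparison between the lines. *Itgb1*, the partner of α3, had vehicle means of 504 ± 62.5 CPM without and 606 ± 94.1 CPM with α3 (0.26, adjusted p = 0.297), and at 546 ± 143 CPM and 739 ± 133 CPM in LN332 (0.46, SE 0.18, adjusted p = 0.0615). *Itga3* differed by 0.20 (adjusted p = 0.349) in LN332. *Itga6* and *Itgb4*, which form the hemidesmosomal integrin α6β4, differed by -0.31 (adjusted p = 0.439) and -0.09 (adjusted p = 0.774) in vehicle, and by -0.30 (adjusted p = 0.436) and -0.00 (adjusted p = 0.996) in LN332.

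Of 26 other tetraspanin genes 23 were in the table (not *Tspan10*, *Tspan18* and *Prph2*), and they moved in both directions between the lines. In vehicle 3 were called higher and 3 lower in MKα3+ cells, with a median log2 fold change of -0.03. In LN332 4 were called higher and 4 lower, with a median of 0.09. Of all genes 10.9% were called higher and 7.56% lower in vehicle, and 11.7% and 8.92% in LN332. *Tspan13* rose by 1.71 (SE 0.28, adjusted p = 0.000200), from 2.79 to 8.74 CPM, *Tspan7*, a tetraspanin best known from neurons, by 1.58 (SE 0.22, adjusted p = 3.42e-05), from 14.0 to 40.1 CPM, and *Tspan33* by 1.29 (SE 0.33, adjusted p = 0.00750), from 2.06 to 5.04 CPM, in vehicle. *Tspan15* fell by 2.42 (SE 0.28, adjusted p = 4.52e-06), from 9.95 to 2.03 CPM, and *Upk1b*, a uroplakin, fell by 1.15 (SE 0.12, adjusted p = 9.97e-07), from 484 to 218 CPM. *Tspan6* fell by 3.15 (SE 0.64, adjusted p = 0.00130), from 22 to 82 counts per library in MKα3− cells and 1 to 8 in MKα3+ cells.

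These 6 genes were called in the same direction in LN332, where their log2 fold changes were 1.60, 1.60 and 1.61 for *Tspan13*, *Tspan7* and *Tspan33* and -2.13, -1.01 and -2.46 for *Tspan15*, *Upk1b* and *Tspan6*. The remaining calls in LN332, named after their values were seen, were *Cd37*, a tetraspanin of leukocytes, at 1.33 (SE 0.43, adjusted p = 0.0261), and *Tspan17* at -0.64 (SE 0.14, adjusted p = 0.00252). In LN332 *Cd37* was at 1.59, 0.530, 0.359 and 0.440 CPM in MKα3− and at 2.45, 0.934, 1.52 and 1.69 CPM in MKα3+ replicates 1 to 4. In LN332 it was highest in replicate 1 of each line, where the immune markers had their lowest sum of the group, 22.8 and 36.5 CPM. In MKα3+ vehicle it was highest in replicate 4 (2.34 CPM) and lowest in replicate 2 (1.16 CPM). The immune markers had their highest and lowest sums of that group there, 322 and 78.8 CPM. In MKα3− vehicle *Cd37* was highest in replicate 1 (1.44 CPM) and lowest in replicate 2 (0.848 CPM), with sums of 46.4 and 49.6 CPM. *Cd53*, also a tetraspanin of leukocytes, was not called in either treatment. Its means were higher in MKα3+ cells, at 0.510 and 1.92 CPM in vehicle and 0.472 and 1.26 CPM in LN332. Its order among the LN332 libraries differed from that of *Cd37*. In LN332 MKα3− replicates 1 to 4 it was at 0.272, 0.459, 0.718 and 0.440 CPM. In the MKα3+ replicates it was at 0.201, 0.731, 1.17 and 2.96 CPM. It was highest in MKα3− replicate 3 and MKα3+ replicate 4, where the immune markers had their highest sum, 78.0 and 336 CPM. The part of immune cells in either gene was not tested. TSPAN15 and TSPAN33 are both regulators of the protease ADAM10, and *Adam10* itself was at 119 and 128 CPM in vehicle (0.11, adjusted p = 0.691). TSPAN5, TSPAN14 and TSPAN17 belong to the same group of regulators, and their genes were not called in vehicle. They were at 0.24 (adjusted p = 0.338), -0.03 (adjusted p = 0.850) and -0.43 (adjusted p = 0.0223). With LN332, 0 of the 23 genes were called in either line, against 0.187% of all genes in MKα3+ and 0.304% in MKα3− cells. In each line 1 of the 23, *Upk1b*, had an unadjusted p-value under 0.05, as had 1388 and 2023 of all 14474 genes. Its log2 fold change was 0.41 (SE 0.11, adjusted p = 0.162) in MKα3+ cells and 0.28 (SE 0.12, adjusted p = 0.321) in MKα3− cells. In MKα3+ cells *Upk1b* had an adjusted p = 0.0209 with the replicate block, again below the minimum change.

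**Figure D5:**
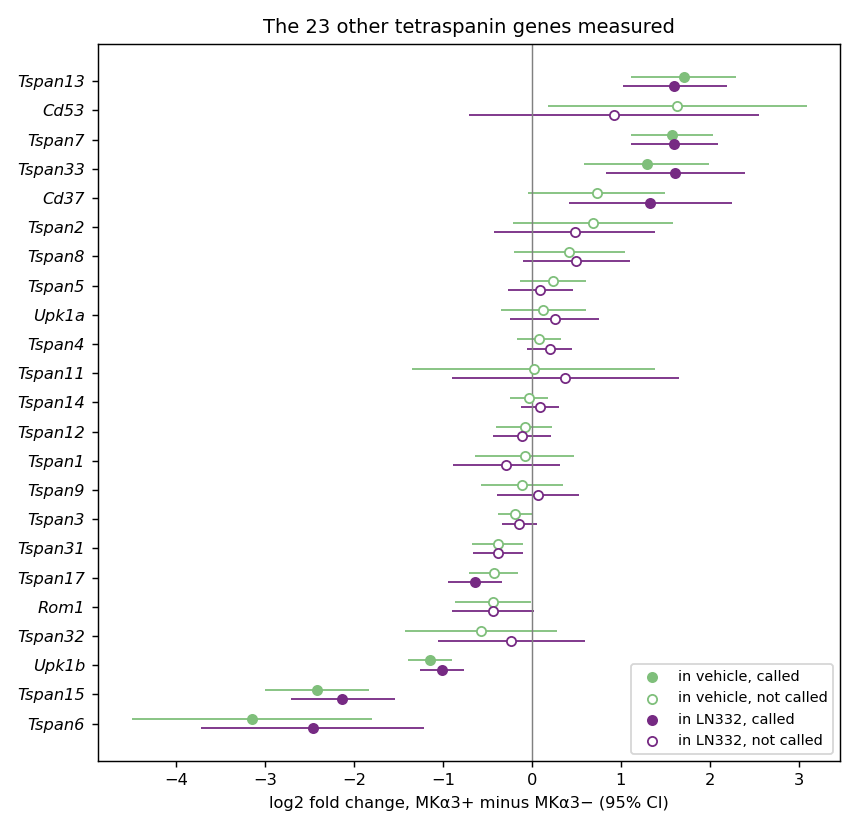
Log2 fold change, MKα3+ minus MKα3− cells, of the 23 other tetraspanin genes (horizontal axis) with 95% intervals, in vehicle (green) and in LN332 (purple), where filled points are called. *Tspan13*, *Tspan7* and *Tspan33* lie above 1 and *Tspan15*, *Tspan6* and *Upk1b* below -1 in both treatments.

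Of 17 other proteins reported in the tetraspanin web, 15 had their gene in the table (not *Mme* and *Jam3*). In vehicle 2 were called higher and 1 lower, with a median log2 fold change of 0.11. In LN332 3 were called higher and 0 lower, with a median of 0.21. Of all genes 18.5% were called in either direction in vehicle and 20.6% in LN332. *Hbegf*, an EGF receptor ligand whose membrane form binds CD9, rose by 0.57 (SE 0.20, adjusted p = 0.0424), from 27.0 to 39.6 CPM in vehicle, and by 0.66 (SE 0.20, adjusted p = 0.0195) in LN332. *Prkca*, a protein kinase C recruited by tetraspanins, rose by 0.58 (SE 0.14, adjusted p = 0.00379) and 0.57 (SE 0.13, adjusted p = 0.00366). *Bsg*, which encodes the CD147 glycoprotein, fell by 0.58 in vehicle (SE 0.14, adjusted p = 0.00428), from 723 to 480 CPM, and *Cdh1*, which encodes E-cadherin, rose by 0.82 in LN332 (SE 0.17, adjusted p = 0.00166). Neither was called in the other treatment, where the means went the same way. *Bsg* was at 703 CPM without and 493 CPM with α3 in LN332. *Cdh1* was at 345 and 459 CPM in vehicle (0.41, adjusted p = 0.0898). With LN332, 0 of the 15 were called in either line, and 5 in each had an unadjusted p-value under 0.05. Of all 14474 genes, 1388 in MKα3+ cells and 2023 in MKα3− cells had such a p-value.

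CD63 passes through late endosomes and leaves cells on exosomes. Of 12 measured genes of late endosomes and lysosomes, 0 were called in any comparison. Between the lines 5 of them in vehicle and 3 in LN332 had an unadjusted p-value under 0.05. Of all 14474 genes, 5648 in vehicle and 6145 in LN332 had such a p-value. Of 13 genes of exosomes and the ESCRT machinery, 1 was called higher and 1 lower in each comparison between the lines, against the 18.5% and 20.6% of all genes called in either direction. *Sdc1*, which encodes syndecan-1, was higher (0.55, SE 0.18, adjusted p = 0.0315 in vehicle and 0.69, SE 0.18, adjusted p = 0.00825 in LN332). *Rab27a*, a GTPase of vesicle docking, was lower (-1.71, SE 0.32, adjusted p = 0.000636 and -1.92, SE 0.32, adjusted p = 0.000209), from 3.55 to 1.10 CPM in vehicle. Its relative *Rab27b* was the only gene of these lists called with LN332, in MKα3− cells (0.52, SE 0.11, adjusted p = 0.0437, from 17.8 to 25.6 CPM). In MKα3+ cells *Rab27b* was at 0.21 (SE 0.11, adjusted p = 0.592), and the interaction of -0.31 (SE 0.16, adjusted p = 1) did not show that the lines differed.

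The genes whose levels followed each member most closely were sought over the 16 libraries by Pearson's r of log2(CPM + 0.5) among 12198 genes, as a description in which the libraries share lines, treatments and replicate numbers. For *Cd81* they were *Slain1* (r = 0.997, mean 0.439 CPM in the 8 MKα3− and 14.9 CPM in the 8 MKα3+ libraries) and *Krt19*, a keratin (r = 0.996, 6.06 and 344 CPM), and both differ mainly between the lines as *Cd81* does. For *Cd9* they were *Gcnt2* (0.949) and *Zbtb7a* (0.948), and for *Ptgfrn* *Gm16867* (0.956) and *Pcdh7* (0.948). For *Igsf8* they were *Atp10d* (0.924) and *Itgb4* (0.917), for *Cd63* *Aldoa* (0.887) and *Otud5* (0.875), and for *Cd82* *Kcnk6* (0.872) and *Klhdc7a* (0.869). *Cd151* had no gene as close, with *Patz1* and *Maea* both at 0.786.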

How the data were processed

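RNA from MKα3− and MKα3+ keratinocytes, treated with vehicle or LN332, was sequenced in 16 libraries. The authors used Rsubread to align reads to mm10, obtained gene counts from featureCounts with its Entrez annotation, and deposited these counts, not normalized, for 14474 genes (284 without a symbol). The submitters' processing notes name bcl2fastq 2.20. Whether the counting used strand is not given in the sources used here.

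The 7 members and the gene lists were chosen with earlier results of these data known. Counts were scaled with TMM factors (edgeR 4.0.16) and fitted with limma-voom (limma 3.58.1, R 4.3.3) on all 16 libraries with a mean for each group, after the study's methods, with Benjamini-Hochberg adjustment. The study's filter (more than 0.5 CPM in at least 3 libraries) removed 0 genes, since every gene passed it in at least 6. Permutation tests were exact, two-sided and over 70 splits, and 28 were run on the members, whose p-values are not adjusted. The labels do not say whether replicates were separate cultures, so p-values measure the spread between these samples. Any pair of replicates differed by a chi-square of at least 5.43 per degree of freedom, more than sampling noise, so each was counted as 1 sample. Exon lengths and overlaps are from GENCODE on GRCm38. The positions used to find neighbouring genes, known for 97.2% of the genes, and the upstream sequences are from RefSeq. The procedure was tested on simulated data.

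Replicate numbers come from the titles. The deviations of MKα3+ vehicle and MKα3+ LN332 libraries with the same number correlated at 0.620, 0.474, 0.202 and 0.580, so the numbers pair these samples. In the other comparisons at least 1 pair was not over 0.1, so the numbers were not taken as pairs there. Still, 14 of 16 libraries correlated best with their own number. The mean r was 0.255 for the same number and -0.0796 for different numbers.

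Named genes are the members, the 4 integrin subunits, up to 3 called genes in each direction of each list and comparison, and the 2 genes most like each member. Neighbouring genes, *Adam10*, *Cd37*, *Cd53*, *Tspan5*, *Tspan14* and *Tspan17* were named after their values were seen. Alternatives were DESeq2 1.42.0, the quasi-likelihood test of edgeR, other scalings, filters and minimum changes, a block for the replicate number, quality weights, fits of the compared groups alone, and fits without each library. edgeR with the block and the fit without 3 libraries were added after seeing the data. Some items of the lists and overlaps are not reported here.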

Additional observations from a re-analysis of the deposited data

Results flagged for a closer look

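Over 44 groups of 4 libraries (the 7 members and 4 integrin subunits in each of the 4 groups), 4 had a library whose gap to the nearest other, as a share of the group's range, exceeded Dixon's 95% critical value, where chance gives about 1 in 20, or 2.2 groups. *Cd9* was at 255 CPM in MKα3+ vehicle replicate 1, with the others between 295 and 302 CPM. *Cd81* was at 9.34 CPM in MKα3− LN332 replicate 4, with the others between 6.68 and 6.98 CPM. *Itga3* and *Itgb1* were at 272 and 542 CPM in MKα3+ LN332 replicate 1. The other libraries of that group had 311 to 314 CPM of *Itga3* and 780 to 823 CPM of *Itgb1*. That *Itga3* and *Itgb1*, the subunits of α3β1, were low in the same library was seen after the fact and was not tested.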

How the results depend on the processing

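*Cd81* was called higher in both comparisons between the lines under every alternative run, with log2 fold changes from 3.93 to 4.03 in vehicle and from 3.71 to 3.86 in LN332, and 0 members were called with LN332 or in the interaction under any of them. Without a minimum fold change, 3 members were called in each comparison between the lines (*Cd81*, *Cd9* and *Ptgfrn*), and over leave-one-out fits 1 to 2. Of 1120 refits of member values, 60 changed sign, 0 of them of a called value and none beyond 0.19 after the change. Under edgeR's test *Ptgfrn* had adjusted p-values of 0.0535 and 0.0626, and with only the groups compared 0.0286 and 0.0935. Between the lines the genes called, 2676 in vehicle and 2987 in LN332, were 4115 and 4654 without a minimum and 1362 and 1345 with a minimum of 1, 1902 and 2399 without the 3 libraries highest in immune markers (2172 and 3063 in place of 4115 and 4654 without a minimum), and leave-one-out fits gave 2345 to 2754 and 2590 to 3338. The 27 genes called with LN332 in MKα3+ cells were 4 with edgeR, 121 with DESeq2, 3 with library size alone, 218 with the replicate block (201 in edgeR), 454 with quality weights, 106 with only the groups compared, 5 with a minimum of 1, 0 without the 3 libraries highest in immune markers, and 0 to 47 with 1 library left out. The 44 genes in MKα3− cells were 165 with DESeq2, 74 with library size alone (24 higher and 50 lower, where TMM gave 35 and 9), 259 with the replicate block (242 in edgeR), 123 with quality weights, 1 with only the groups compared, 6 with a minimum of 1, 1 without the 3 libraries, and 1 to 150 with 1 library left out. The 196 genes of the averaged response were 363 with the block (356 in edgeR), 464 with quality weights, 637 without a minimum, 13 with a minimum of 1, 28 without the 3 libraries, and 114 to 321 with 1 library left out. Library size alone moved the median of all genes to -0.08 in the LN332 comparisons and the averaged response from 133 higher and 63 lower to 84 and 174. The cause of these shifts was not tested. Where not every pair with the same number correlated above 0.1, the block changed no member's call (*Ptgfrn* adjusted p = 0.00255 and 0.00268). Across all groups 18 of 24 pairs with the same number correlated above 0.1, and 14 of 16 libraries correlated best with their own number. *Cd82*, with 13 to 114 counts per library, had the fewest counts and the widest intervals of the members, and depth and replicate spread were not separated there.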
